A study of Mus musculus with 24 samples.

Results

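The 4 mouse genes described here are Ninj1, Ninj2, Gsdmd and Gsdme, which encode ninjurins and gasdermins. They were chosen by name, for what their proteins are known to do at the plasma membrane of a dying cell, and they are 4 of the 52636 gene models in the deposited files. Of the 4, 3 passed the filter on low counts and were tested, and Ninj2 was not. The libraries came from bone marrow-derived macrophages, primary macrophages grown from marrow precursors. The 4 groups, of 6 libraries each, were Ninj1 knockout macrophages stimulated with Pam3 (KO_Pam3), wild-type C57BL/6 macrophages stimulated with Pam3 (WT_Pam3), Ninj1 knockout macrophages kept in media (KO_media) and wild-type C57BL/6 macrophages kept in media (WT_media). Pam3 is the common short name of Pam3CSK4, a synthetic lipopeptide seen by Toll-like receptor 2 with Toll-like receptor 1. The dose and length of the stimulation, the age of the mice, the strain background of the knockout and the part of Ninj1 that was deleted are not stated in the labels. Separate animals or cultures are not stated for the 6 libraries of a group either, and p-values then cover only the spread between these libraries, which may be technical.

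Lytic cell death of macrophages runs through a short chain of proteins. Inflammasomes, assembled on sensors such as NLRP3, activate caspase-1, and caspase-11 (encoded by Casp4) binds bacterial lipopolysaccharide in the cytosol. Both cut gasdermin D, whose freed amino-terminal part forms pores in the plasma membrane, and gasdermin E forms pores in the same way once it is cut. NINJ1 then clusters in the membrane and carries out its final rupture, which lets large molecules out. NINJ2 is the closest relative of NINJ1 and is not known to carry out rupture in macrophages.

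Each library held 31302011 to 40663152 counted reads. Levels are given as CPM, counts scaled to library sizes adjusted by TMM (edgeR's trimmed mean of M-values), for comparing 1 gene between groups. RPKM, the deposited values per kilobase of gene length, serves for comparing genes. Macrophage markers summed to 31648 to 33284 CPM in KO_Pam3, 33587 to 38098 in WT_Pam3, 27141 to 27775 in KO_media and 26543 to 28356 in WT_media, and none of the 9 was at 0. Lyz2 alone averaged 19810 CPM in KO_Pam3 and 21737 in WT_Pam3, so the sum says little about the other markers. By the edgeR test at an adjusted p under 0.05, 3 of the 9 rose and 5 fell with Pam3 in KO, beside 40.2% and 44.8% of all genes. In WT 4 rose and 5 fell, beside 40.6% and 44.2%. The 8 granulocyte markers summed to 48.6 to 56.5 CPM in KO_Pam3 and 39.1 to 62 in WT_Pam3, and to 80.9 to 93.3 in KO_media and 59 to 69.9 in WT_media. The 8 stromal and endothelial markers summed to 100 to 122 CPM in KO_Pam3 and 65 to 104 in WT_Pam3, and to 54.2 to 92.1 in KO_media and 45 to 51.5 in WT_media. Kdr alone averaged 57.5 CPM in KO_Pam3 and 57.2 in WT_Pam3, against 13.6 in KO_media and 12.1 in WT_media. Of the 8, 3 rose and 1 fell with Pam3 in each genotype, beside the same shares of all genes, so the higher sum after Pam3 does not hold for the markers as a set. The lymphocyte, dendritic cell, mast cell and basophil, and erythroid lists each summed to 7.09 CPM or less in every library. Ly6g, the neutrophil surface marker, had 13 counts over the 24 libraries. The WT libraries are labelled male and the KO libraries carry no sex, but Xist, the RNA of the inactive X chromosome, was at 233 to 796 CPM in all 24 libraries. Of the Y chromosome's genes, Kdm5d and Eif2s3y were at 0 counts throughout. WT_Pam3 replicate 5 stood away from the other libraries of its group for Ninj1 and Gsdmd, and results that rest on it are given with and without it.

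The 4 genes lie on 3 chromosomes of GRCm38, with positions from the GENCODE annotation. Ninj1 (ENSMUSG00000037966) is at chr13:49187485-49196244 on the plus strand, and Ninj2 (ENSMUSG00000041377) is at chr6:120093350-120200339 on the plus strand. Gsdmd (ENSMUSG00000022575) is at chr15:75862327-75867408 on the plus strand, and Gsdme (ENSMUSG00000029821) is at chr6:50188888-50263862 on the minus strand. Gsdme overlaps Mpp6 on the opposite strand and Ninj2 overlaps Gm25327, with 0 exonic bases shared in both cases. The library kit did not mark strand, so intronic reads of such neighbours could not be told apart. No 50-base window of the annotated transcripts of the 4 genes occurred in an annotated transcript of another gene. Only exact matches were searched, so copies with mismatches or outside the annotation were not checked.

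The RefSeq promoter table (GRCm38.p6, 250 bases before and 50 after the start it uses for each gene) held 3 of the 4 genes. These starts can differ from those of GENCODE. The Gsdme window lies inside the GENCODE gene, which on the minus strand begins at chr6:50263862, so it does not cover that start. The 3 windows are shown because Ninj1 and Gsdme moved in opposite directions with Pam3, while Ninj2, the paralog of Ninj1, was barely detected. They are written 5′ to 3′ on the strand of the gene, and capitals mark the GC box GGGCGG on either strand.
Ninj1 (chr13:49187279-49187578, plus strand): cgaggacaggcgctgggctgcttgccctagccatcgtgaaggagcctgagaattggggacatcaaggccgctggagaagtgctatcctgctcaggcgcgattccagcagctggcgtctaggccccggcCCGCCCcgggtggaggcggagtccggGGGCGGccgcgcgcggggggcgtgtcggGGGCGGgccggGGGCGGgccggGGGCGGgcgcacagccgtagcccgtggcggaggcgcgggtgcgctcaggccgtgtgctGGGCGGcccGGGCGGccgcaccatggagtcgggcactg
Gsdme (chr6:50261720-50262019, minus strand): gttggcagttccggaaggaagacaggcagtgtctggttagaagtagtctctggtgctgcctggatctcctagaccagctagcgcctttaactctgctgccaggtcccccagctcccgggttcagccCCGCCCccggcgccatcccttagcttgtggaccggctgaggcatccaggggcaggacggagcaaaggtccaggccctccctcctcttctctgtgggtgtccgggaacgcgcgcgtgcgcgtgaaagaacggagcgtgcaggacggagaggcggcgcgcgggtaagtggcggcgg
Ninj2 (chr6:120093130-120093429, plus strand): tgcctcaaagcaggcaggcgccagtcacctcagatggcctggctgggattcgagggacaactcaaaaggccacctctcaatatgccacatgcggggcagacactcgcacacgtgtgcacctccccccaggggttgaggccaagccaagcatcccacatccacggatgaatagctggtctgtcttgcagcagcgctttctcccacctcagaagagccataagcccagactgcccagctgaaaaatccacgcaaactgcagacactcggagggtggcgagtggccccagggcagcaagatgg
The Ninj1 window was 76.3% G and C with 37 CpG dinucleotides, the Gsdme window 65.7% with 24 and the Ninj2 window 59.7% with 10, against a median of 52.7% over the 32851 promoters of the table. The Ninj1 window held 7 GC boxes, the Gsdme window 1 and the Ninj2 window 0, and 35.7% of all promoters held at least 1. Searched on both strands, the interferon-stimulated response element (GAAANN followed by GAAA, in 3.44% of all promoters), the AP-1 site (TGANTCA, in 7.81%) and the NF-kB consensus (in 4.51%) had 0 matches in the 3 windows. These are matches of letters and do not show binding.

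Ninj1, the gene targeted in the knockout, was lower in KO than in WT macrophages at both treatments, and its RNA was still present in the KO libraries. In media, the 6 KO libraries had 161, 174, 179, 168, 167 and 151 CPM of Ninj1, against 298, 289, 325, 319, 292 and 320 CPM in the 6 WT libraries. After Pam3, the 6 KO libraries had 413, 409, 418, 433, 423 and 479 CPM, against 691, 802, 810, 768, 1145 and 646 CPM in the 6 WT libraries. All 6 KO libraries lay below all 6 WT libraries of the same treatment, and WT_Pam3 replicate 5 was the highest of the 24. As a share of the WT mean, the KO libraries held 54.3% ± 3.15 in media and 52.9% ± 3.17 after Pam3 (SD, n = 6 each), or 57.7% ± 3.46 after Pam3 without WT_Pam3 replicate 5. In these bulk samples, fewer cells of a type and less RNA per cell cannot be told apart. The gene-level count covers every exon together, so it does not show which part of the transcript remained.

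In edgeR's quasi-likelihood test, the log2 fold change of Ninj1 was -0.88 in KO_media over WT_media (SE 0.0874, 95% interval -1.06 to -0.70, adjusted p = 7.33e-07). It was -0.92 in KO_Pam3 over WT_Pam3 (SE 0.0872, 95% interval -1.10 to -0.74, adjusted p = 4.05e-07). Ninj1 was the only one of the 3 tested members called in either comparison, and it was called lower. Over all 14435 genes tested, 3.03% were called in media, with 1.12% lower in KO, at an adjusted p under 0.05. After Pam3, 4.06% were called, with 2.75% lower in KO. All 6 KO libraries lay below all 6 WT libraries for 2.11% of genes in media and 1.63% after Pam3.

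Ninj1 rose with Pam3 in both genotypes. Its level after Pam3 ran from 409 to 479 CPM in KO (median 420), against 151 to 179 CPM in KO_media (median 167). In WT it ran from 646 to 1145 CPM after Pam3 (median 785), against 289 to 325 CPM in WT_media (median 308). The treated and untreated groups did not overlap in either genotype, and every KO_Pam3 library lay above every WT_media library as well. The log2 fold change of Pam3 over media was 1.36 in KO (SE 0.0883, 2.57-fold, adjusted p = 5.70e-14) and 1.40 in WT (SE 0.0881, 2.64-fold, adjusted p = 3.06e-14). The response in KO minus that in WT was -0.04 (95% interval -0.29 to 0.22, adjusted p = 0.922), and without WT_Pam3 replicate 5 it was 0.0891 (adjusted p = 0.643). The interval holds differences of either sign, so the responses are not shown to be equal.

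Of the 3 tested members, all passed the test of Pam3 against media in both genotypes, 2 higher and 1 lower. Against this stands a background of 85% of all genes tested in KO and 84.8% in WT, of which 40.2% in KO and 40.6% in WT were higher. The groups did not overlap for 75.7% of genes in KO and 68.8% in WT, so a change with Pam3 is the common case among the genes of these libraries. Pam3 libraries needed TMM factors below 1 and media libraries above 1, and the direction of each member was the same with library sizes alone, where Ninj1 had log2 fold changes of 0.8801 in KO and 0.8768 in WT.

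**Figure D1:**
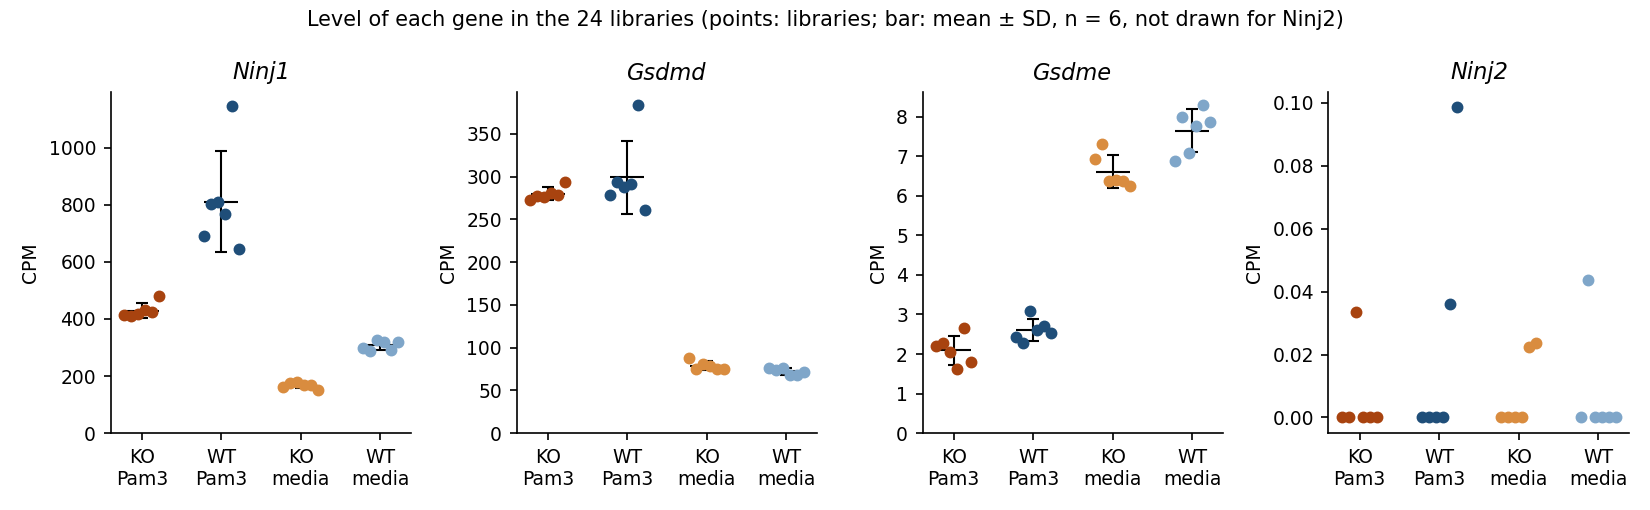
Level of Ninj1, Gsdmd, Gsdme and Ninj2 in CPM (vertical axes, each from 0 or near it) in each library of KO Pam3, WT Pam3, KO media and WT media. Points are libraries and bars are the mean ± SD (n = 6), left out for Ninj2; Ninj1 separates all 4 groups, with WT_Pam3 replicate 5 highest at 1145 CPM, while Gsdmd and Gsdme separate the treatments and overlap between genotypes.

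Ninj2, which like Ninj1 encodes a small membrane protein with a role in adhesion, was at the limit of detection in every group. It had 1 count in KO_Pam3, 4 in WT_Pam3, 2 in KO_media and 2 in WT_media, or 9 counts in all. It was at 0 in 18 of the 24 libraries, and the highest library, in WT_Pam3, had 3 counts (0.0985 CPM). A count of 0 allows up to 3 counts, which was 0.0627 to 0.111 CPM over the libraries, and this limit covers counting error only. Fold changes are not given at this depth. With no filter on low counts, edgeR gave Ninj2 an adjusted p of 1 for KO_media against WT_media and 0.637 for KO_Pam3 against WT_Pam3, so a higher Ninj2 in macrophages with the Ninj1 knockout was not detectable.

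Gsdmd, the pore-forming substrate of caspase-1 and caspase-11, rose with Pam3 in both genotypes and was not called between genotypes. It ran from 273 to 294 CPM in KO_Pam3 (median 278), against 74.7 to 88.2 CPM in KO_media (median 76.8). In WT it ran from 261 to 383 CPM after Pam3 (median 289), against 67.6 to 76.4 CPM in WT_media (median 72.9). The treatments did not overlap, and the genotypes overlapped at each treatment. The log2 fold change of Pam3 over media was 1.83 in KO (SE 0.0659, 3.55-fold, adjusted p = 9.68e-20) and 2.05 in WT (SE 0.0664, 4.13-fold, adjusted p = 8.69e-21).

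Between genotypes, Gsdmd averaged 280 ± 7.25 CPM in KO_Pam3 and 299 ± 42.8 CPM in WT_Pam3 (SD, n = 6 each), and 282 ± 13.1 CPM in WT_Pam3 without replicate 5. It averaged 78.8 ± 5.24 CPM in KO_media and 72.4 ± 3.79 CPM in WT_media (SD, n = 6 each). The log2 fold change of KO over WT was -0.10 after Pam3 (95% interval -0.23 to 0.04, adjusted p = 0.481) and 0.12 in media (95% interval -0.01 to 0.26, adjusted p = 0.44). The log2 response to Pam3 in KO minus the one in WT was -0.22 (SE 0.0906, 95% interval -0.41 to -0.03), with an unadjusted edgeR p of 0.0229 and an adjusted p of 0.305. With each library left out in turn, this difference of responses ran from -0.26 to -0.14. The value of KO over WT after Pam3 then ran from -0.13 to -0.0118, so both sizes lean on single libraries. Over all genes tested, 0.762% were called for this difference of responses, and 0 of the 3 members were: the unadjusted edgeR p was under 0.05 for Gsdmd alone, DESeq2 called neither Ninj1 nor Gsdmd, and limma called none. Without WT_Pam3 replicate 5, Gsdmd passed in media in edgeR, at 0.1238 (adjusted p = 0.0466). That library is in neither media group, and the value with all libraries was also 0.1238 (adjusted p = 0.44). Leaving it out acts there only through the fit shared by all groups. With the media groups alone, the value was 0.1261 and did not pass (adjusted p = 0.0787). The granulocyte and stromal markers, which summed higher in KO_media than in WT_media, moved with genotype in the same libraries, and their part in these values was not tested.

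Gsdme, which encodes the pore-forming gasdermin E, fell with Pam3 in both genotypes, the opposite direction to Gsdmd and Ninj1. It ran from 1.61 to 2.65 CPM in KO_Pam3 (median 2.12), against 6.26 to 7.31 CPM in KO_media (median 6.39). In WT it ran from 2.29 to 3.08 CPM after Pam3 (median 2.57), against 6.88 to 8.29 CPM in WT_media (median 7.82). No Pam3 library reached the lowest media library. The log2 fold change of Pam3 over media was -1.66 in KO (SE 0.0882, adjusted p = 6.84e-16) and -1.56 in WT (SE 0.0853, adjusted p = 1.35e-15), which left 0.317 of the media level in KO and 0.34 in WT. With limma on log2(RPKM + 1), a scale that compresses levels this low, the values were -0.5187 in KO and -0.5467 in WT, and both passed. The Gsdme values rest on 53 to 380 counts per library, far fewer than the 2835 or more behind Gsdmd. Mpp6, on the other strand of the same locus, rose with Pam3 in both genotypes (log2 fold change 1.05 in WT, adjusted p = 5.39e-17 in KO and 2.03e-17 in WT).

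Between genotypes, Gsdme did not pass the test at either treatment. It averaged 2.1 ± 0.365 CPM in KO_Pam3 and 2.61 ± 0.275 CPM in WT_Pam3, and 6.61 ± 0.417 CPM in KO_media and 7.65 ± 0.547 CPM in WT_media (SD, n = 6 each). The log2 fold change of KO over WT was -0.31 after Pam3 (SE 0.103, 95% interval -0.53 to -0.10, adjusted p = 0.0875) and -0.21 in media (SE 0.0728, 95% interval -0.36 to -0.06, adjusted p = 0.132). The media value passed in DESeq2 (-0.2172, adjusted p = 0.0465), with the groups compared alone (-0.2113, adjusted p = 0.0334) and without WT_Pam3 replicate 5 (-0.2134, adjusted p = 0.0426). That library is in neither media group and enters only through the shared fit. The Pam3 value passed without KO_Pam3 replicate 5 (-0.3868, adjusted p = 0.0301). The difference of the responses, KO minus WT, was -0.10 (95% interval -0.36 to 0.16, adjusted p = 0.75).

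**Figure D2:**
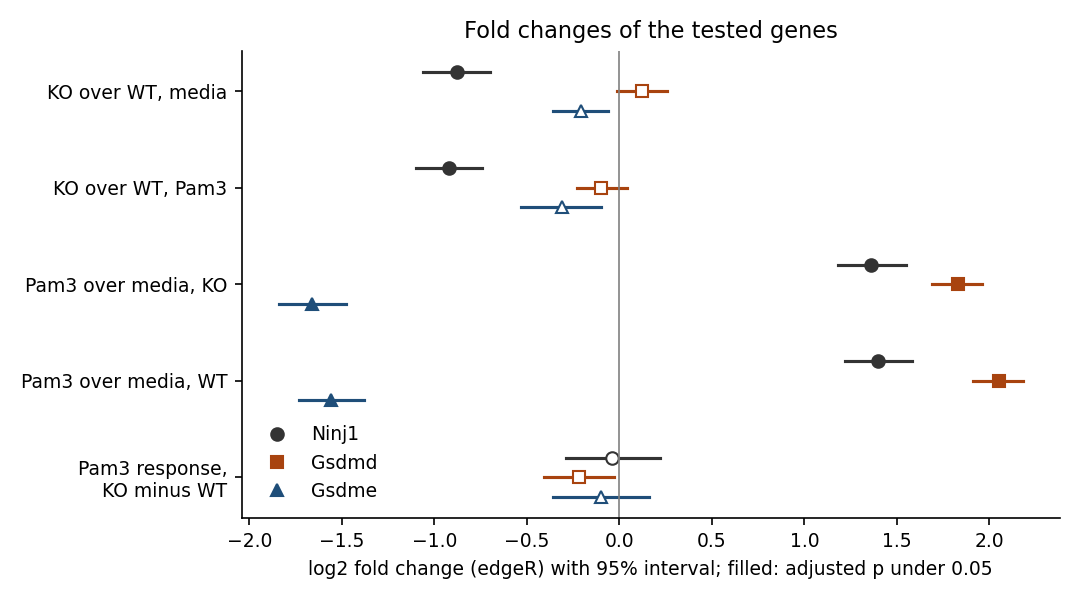
Log2 fold changes of Ninj1, Gsdmd and Gsdme (horizontal axis, edgeR, bars are 95% intervals) for KO over WT in media and after Pam3, Pam3 over media in KO and in WT, and the difference of the Pam3 responses, KO minus WT. Filled points have an adjusted p under 0.05: only Ninj1 is filled between genotypes, all 3 genes are filled for Pam3, and Gsdme lies at -1.66 and -1.56 where Ninj1 and Gsdmd lie above 1.

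On the length-scaled values, the 3 detected genes kept the same order in each group, with Ninj1 above Gsdmd and Gsdmd above Gsdme. Ninj1 averaged 286 ± 16.9 RPKM in KO_Pam3, 541 ± 116 in WT_Pam3, 109 ± 6.49 in KO_media and 201 ± 10.8 in WT_media (SD, n = 6 each). Gsdmd averaged 143 ± 3.63 RPKM in KO_Pam3, 153 ± 21.4 in WT_Pam3, 39.4 ± 2.63 in KO_media and 36.3 ± 1.82 in WT_media (SD, n = 6 each). Gsdme averaged 0.262 ± 0.0465 RPKM in KO_Pam3, 0.326 ± 0.0344 in WT_Pam3, 0.808 ± 0.0514 in KO_media and 0.937 ± 0.0691 in WT_media (SD, n = 6 each). The libraries of neighbouring genes in this order did not overlap in any group. The gap between the gasdermins was 560-fold in KO_Pam3 and 472-fold in WT_Pam3, against 48.9-fold in KO_media and 39-fold in WT_media, as the mean over 6 libraries of the RPKM ratio of Gsdmd to Gsdme within a library. With the exonic lengths of GENCODE in place of the authors' gene lengths the gaps were 734-fold in KO_Pam3, 619-fold in WT_Pam3, 64.1-fold in KO_media and 51.1-fold in WT_media, so the order did not depend on the length used while the size of the gap did.

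**Figure D3:**
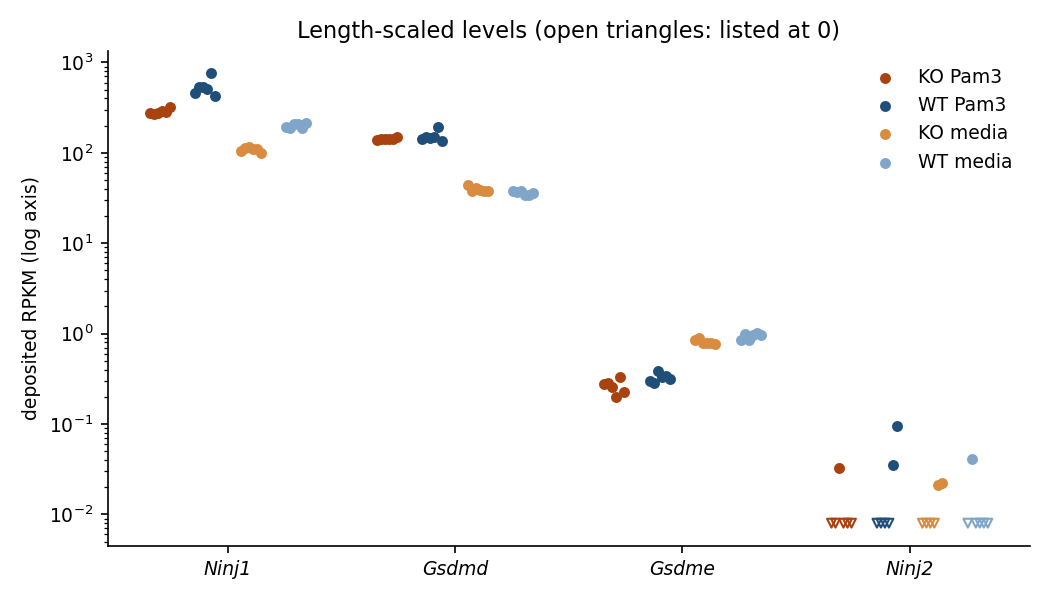
Deposited RPKM (log axis) of Ninj1, Gsdmd, Gsdme and Ninj2 in each library of KO Pam3, WT Pam3, KO media and WT media, with open triangles for libraries listed at 0. Ninj1 and Gsdmd lie between 34 and 760 RPKM, Gsdme between 0.201 and 1.01 RPKM, and Ninj2 is at 0 in 18 of 24 libraries.

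Ratios within a library do not depend on how libraries are scaled, so they give the RNA of the rupture gene relative to that of the pore gene in the same library. Between genotypes, the lower Ninj1 count of the knockout enters this ratio. The RPKM ratio of Ninj1 to Gsdmd was 2 ± 0.0684 in KO_Pam3 and 3.51 ± 0.259 in WT_Pam3, and 2.77 ± 0.233 in KO_media and 5.56 ± 0.409 in WT_media (SD, n = 6 each). The groups did not overlap between genotypes or between treatments. The log2 difference of KO minus WT was -0.81 after Pam3 and -1.01 in media, and that of Pam3 minus media was -0.47 in KO and -0.66 in WT. Each of these 4 had a two-sided exact permutation p of 0.00216, the lowest possible with 6 and 6 libraries, and an adjusted p of 0.00289 over the 8 ratio tests made. In WT_Pam3 replicate 5 both genes were high together, and without any 1 library the 4 log2 differences stayed between -1.03 and -0.44.

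The RPKM ratio of Gsdme to Gsdmd was 0.00184 ± 3.42e-04 in KO_Pam3 and 0.00216 ± 3.16e-04 in WT_Pam3, and 0.0206 ± 0.00176 in KO_media and 0.026 ± 0.00298 in WT_media (SD, n = 6 each). The log2 difference of Pam3 minus media was -3.50 in KO and -3.59 in WT (exact permutation adjusted p = 0.00289 for both). In media it was lower in KO by a log2 difference of -0.33 (exact permutation p = 0.00649, adjusted p = 0.00742), with overlapping groups. After Pam3 the log2 difference of KO minus WT was -0.24 and did not pass (exact permutation p = 0.128, adjusted p = 0.128).

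**Figure D4:**
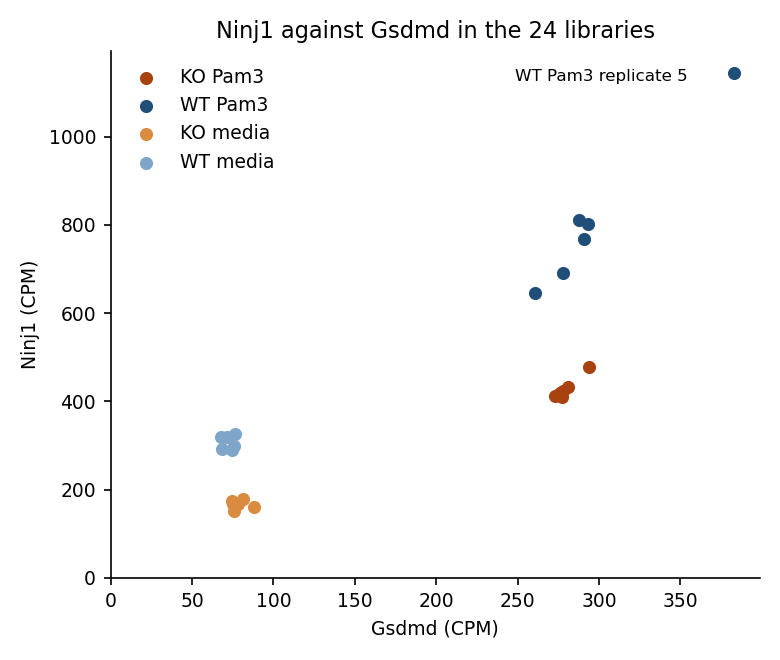
Ninj1 (vertical axis, CPM) against Gsdmd (horizontal axis, CPM), both axes from 0, in the 24 libraries, coloured by group. The treatments separate along both axes and the genotypes along the Ninj1 axis, and WT_Pam3 replicate 5 lies alone at 383 CPM of Gsdmd and 1145 CPM of Ninj1.

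The genes whose levels followed each member most closely are given as a description, since the 24 libraries fall into 2 treatments and any gene that moves with Pam3 shares that split. In every ranking of likeness, predicted gene models (named Gm with digits, or ending in Rik) and genes without a symbol were passed over. For Ninj1, the 5 highest Pearson r of log2 CPM over the 24 libraries belonged to Hk3 (0.956), Slc48a1 (0.955), Slc38a6 (0.953), Evl (0.950) and Ccl8 (0.949). Hk3 encodes a hexokinase, and Ccl8 a chemokine. Hk3 averaged 601 CPM in KO_Pam3, 745 in WT_Pam3, 452 in KO_media and 498 in WT_media, the same order of groups within each treatment as Ninj1. For Gsdmd, the 5 were Ncf4, Psme2b, Relb, Psme2 and Atf4, each at 0.998. Ncf4 encodes a subunit of the phagocyte NADPH oxidase, Psme2 a subunit of the proteasome activator, and Relb an NF-kB protein, and Psme2 and Psme2b are near-identical copies whose reads could be split between them. For Gsdme, the 5 were Dnal1 (0.985), Tmem37 (0.985), Pianp (0.984), Mertk (0.983) and Pkdcc (0.983). Mertk, a receptor for the uptake of dying cells, averaged 21.9 CPM in KO_Pam3 and 34 in WT_Pam3, against 159 in KO_media and 176 in WT_media.

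After the group means were subtracted, the likeness that remained was that between libraries of 1 group. For Ninj1 the 5 highest r of these deviations were those of Plekho1 (0.975), Rilpl2 (0.969), Cdk4 (0.964), H2-D1 (0.964) and Sgta (0.964). Without WT_Pam3 replicate 5, over 23 libraries, they were 0.943, 0.909, 0.913, 0.898 and 0.893. For Gsdmd they were those of Dusp28 (0.921), Mrpl16 (0.920), Psmb8 (0.919), Psmb10 (0.915) and H2-K1 (0.911), and without that library 0.815, 0.778, 0.768, 0.755 and 0.748. Psmb8 and Psmb10 encode subunits of the immunoproteasome, and H2-K1 and H2-D1 are class I histocompatibility genes whose reads can be shared with related genes. For Gsdme the r were lower, led by Shq1 (0.751) and Ehhadh (0.719), and all 5 genes had a mean under 5 CPM in every group.

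Outside the 4 genes, the remaining gasdermins were close to undetected. Of Gsdma, Gsdma2, Gsdma3, Gsdmc, Gsdmc2, Gsdmc3, Gsdmc4 and Pjvk, 0 of 8 passed the filter on low counts. Pjvk, the gasdermin relative known from hearing loss, had 70 counts in all 24 libraries and Gsdmc4 had 35, while Gsdma2, Gsdma3, Gsdmc2 and Gsdmc3 had 0. Of the gasdermin genes listed, Gsdmd and Gsdme were the ones that passed the filter.

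Around the members, 7 lists of pathway genes held 67 genes, of which 54 were tested. With Pam3, 30 rose and 16 fell in KO, and 31 rose and 14 fell in WT, beside 40.2% of all genes called higher and 44.8% lower in KO and 40.6% higher and 44.2% lower in WT. Scaled by library size alone, where the median of all genes shifted by -0.56 in KO and -0.58 in WT, the split was 20 higher and 29 lower in KO and 18 higher and 29 lower in WT, so counts of small changes depend on the scaling. Of all 14435 genes, 3685 were then higher and 8935 lower in KO, and 3584 and 9055 in WT. These are the backgrounds for the counts with library sizes alone in each list below.

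Inflammasome sensors and adaptors split in both directions with Pam3. Of 10 tested, 5 rose and 4 fell in KO, and 4 rose and 3 fell in WT, and with library sizes alone 3 rose and 6 fell in each. Of all genes, 40.2% rose and 44.8% fell in KO, and 40.6% and 44.2% in WT. Nlrp3, the sensor of potassium loss, averaged 1763 ± 25.3 CPM in KO_Pam3 and 1778 ± 195 in WT_Pam3, against 75.2 ± 3.18 in KO_media and 74.6 ± 1.92 in WT_media (SD, n = 6 each), with log2 fold changes of 4.55 in KO and 4.58 in WT. Mefv, which encodes pyrin, rose by 4.66 in KO and 4.90 in WT on the log2 scale. Nlrp1b, the sensor of anthrax lethal factor, fell to 1.22 ± 0.0621 CPM in KO_Pam3 and 1.3 ± 0.116 in WT_Pam3, against 45.8 ± 3.43 in KO_media and 50.6 ± 10.3 in WT_media (SD, n = 6 each). Naip5, a flagellin receptor, fell, with log2 fold changes of -1.40 in KO and -1.36 in WT. The Naip and Nlrp1 genes have close copies, so their counts are uncertain.

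Among the proteases that cut gasdermins, 7 of 9 were tested, and 4 rose and 3 fell with Pam3 in each genotype, against 3 higher and 4 lower with library sizes alone. Over all genes, 40.2% rose and 44.8% fell in KO, and 40.6% and 44.2% in WT. Casp4 and Casp1, whose caspases cut gasdermin D, rose. Casp4 averaged 161 ± 7.91 CPM in KO_Pam3 and 181 ± 19 in WT_Pam3, against 14.1 ± 1.92 in KO_media and 12.1 ± 1.13 in WT_media (SD, n = 6 each). Casp1 rose by 1.94 in KO and 2.17 in WT on the log2 scale. Elane, the neutrophil elastase gene and a product of immature granulocytes, fell, with log2 fold changes of -2.82 in KO and -2.85 in WT. Of 7 granulocyte markers tested, 5 fell with Pam3 in each genotype, beside 44.8% of all genes called lower in KO and 44.2% in WT. Camp rose, by 1.59 in KO and 1.96 in WT on the log2 scale, and S100a8 was not called in either genotype. The part of granulocytes in the Elane value was not tested.

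The list of regulators of gasdermin expression and pore assembly held transcription factors and the Ragulator-Rag proteins, a lysosomal complex required for gasdermin D pores to form. Of 11 tested, 6 rose and 5 fell in KO, and 6 rose and 4 fell in WT, against 3 higher and 6 lower in each with library sizes alone. Of all genes, 40.2% rose and 44.8% fell in KO, and 40.6% and 44.2% in WT. Nfkb1 rose by 3.04 in KO and 3.08 in WT, Irf1 by 2.90 in KO and 3.43 in WT, and Rela by 1.52 in KO and 1.67 in WT, on the log2 scale. Irf2, a known activator of the Gsdmd promoter, had log2 fold changes of 0.21 in KO and 0.37 in WT, which turned to -0.27 in KO and -0.15 in WT with library sizes alone. Lamtor4 fell, with log2 fold changes of -1.75 in KO and -1.40 in WT.

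The ESCRT proteins pinch off damaged membrane and so remove gasdermin pores. Of 15 tested, 9 rose and 2 fell in KO and 10 rose and 2 fell in WT with Pam3, against 6 higher and 7 lower in KO and 4 higher and 7 lower in WT with library sizes alone. Of all 14435 genes, 40.2% rose and 44.8% fell in KO, and 40.6% and 44.2% in WT. With library sizes alone, 3685 of them rose and 8935 fell in KO, and 3584 and 9055 in WT. Ist1 averaged 245 ± 7.72 CPM in KO_Pam3 and 239 ± 4.41 in WT_Pam3, against 105 ± 4.66 in KO_media and 96.7 ± 3.02 in WT_media (SD, n = 6 each). Chmp4b, which encodes a main filament subunit, had log2 fold changes of 1.08 in KO and 1.30 in WT, and Pdcd6ip, the gene of the adaptor ALIX, 0.66 in KO and 0.62 in WT.

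Of the 5 genes of released cargo, 4 rose and 1 fell in each genotype, with the same split under library sizes alone. Of all genes, 40.2% rose and 44.8% fell in KO, and 40.6% and 44.2% in WT. Il1b rose to 5071 ± 184 CPM in KO_Pam3 and 4385 ± 404 in WT_Pam3, against 1.06 ± 0.799 in KO_media and 0.561 ± 0.176 in WT_media (SD, n = 6 each). Il18 rose by 3.67 in KO and 3.72 in WT on the log2 scale, and Ldha, whose enzyme is the usual readout of rupture, by 1.08 in KO and 1.07 in WT. Hmgb1 fell, with log2 fold changes of -1.53 in KO and -1.50 in WT, but it was at 3.18 CPM or less in the mean of every group and has many near-identical copies in the genome, so its count is uncertain. Among other pore and lytic death genes, P2rx7, the ATP-gated channel upstream of NLRP3, fell to 12 ± 0.585 CPM in KO_Pam3 and 13.5 ± 1.13 in WT_Pam3, against 146 ± 4.8 in KO_media and 149 ± 4.51 in WT_media (SD, n = 6 each). Mlkl, the executor of necroptosis, rose by 2.03 in KO and 2.35 in WT on the log2 scale. Of the 6 tested in this list, 2 rose and 1 fell in KO and 3 rose and 1 fell in WT, against 1 higher and 5 lower in each with library sizes alone. The shares of all genes given for the cargo list stand beside these counts too.

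**Figure D5:**
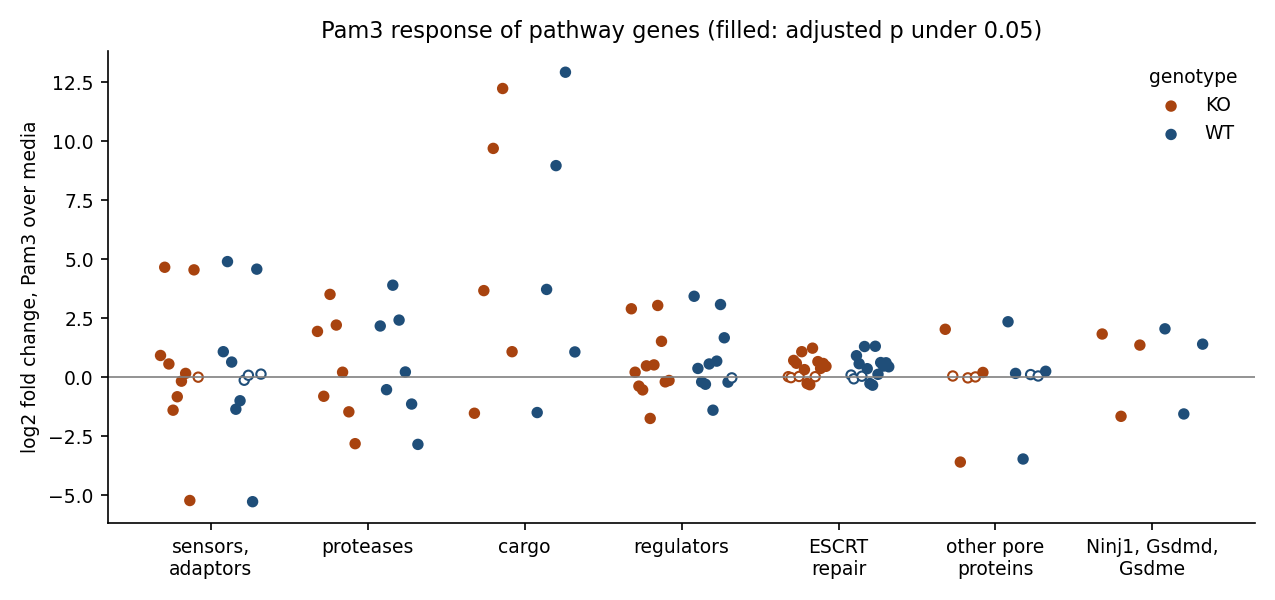
Log2 fold change of Pam3 over media (vertical axis, edgeR) of each tested pathway gene, in KO (left of each pair) and in WT (right), by list; the last column holds Ninj1, Gsdmd and Gsdme. Filled points have an adjusted p under 0.05, and each list holds genes on both sides of 0, from -5.28 (Nlrp1b in WT) to 12.93 (Il1b in WT).

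Between genotypes, few of the 54 pathway genes passed. In KO_media against WT_media 1 was higher and 1 lower, beside 1.92% of all genes called higher and 1.12% lower. Mefv was higher, at 4.61 ± 0.732 CPM in KO_media and 3.68 ± 0.414 CPM in WT_media (SD, n = 6 each, log2 fold change 0.32, SE 0.0788, adjusted p = 0.0209), and it passed in 29 of 33 settings. Il1a was lower, at 0.813 ± 0.312 CPM in KO_media and 1.21 ± 0.0825 CPM in WT_media (SD, n = 6 each, log2 fold change -0.58, SE 0.16, adjusted p = 0.0458), and it passed in 12 of 33 settings tried. In KO_Pam3 against WT_Pam3 0 were higher and 3 lower, beside 1.31% and 2.75% of all genes.

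Irf1 and Rragc were among the 3 lower genes. Irf1, an interferon regulatory factor of the same family as Irf2, averaged 729 ± 42.8 CPM in KO_Pam3 and 914 ± 70.8 CPM in WT_Pam3 (SD, n = 6 each, log2 fold change -0.33, SE 0.0628, adjusted p = 0.00213), and passed in 33 of 33 settings. Rragc, a Rag GTPase, averaged 378 ± 14.2 CPM in KO_Pam3 and 426 ± 15.4 CPM in WT_Pam3 (SD, n = 6 each, log2 fold change -0.17, SE 0.034, adjusted p = 0.0024), and passed in 31 of 33 settings. Without WT_Pam3 replicate 5, 0 of the 54 were higher and 10 lower after Pam3, where 352 of all 14566 genes then tested were higher and 826 lower. In media, a comparison that library enters only through the shared fit, 5 of the 54 were then higher and 1 lower, where 658 of all genes were higher and 616 lower. The granulocyte markers stood beside these values: of 7 tested, 4 were higher in KO_media and 2 in KO_Pam3, and 3 of 8 stromal and endothelial markers were higher in KO at each treatment. Of 9 macrophage markers, 1 was higher and 0 lower in KO_media, and 1 was higher and 3 lower in KO_Pam3. These marker counts come from the fit of all 24 libraries. In that fit 1.92% of all genes were called higher and 1.12% lower in media, and 1.31% and 2.75% after Pam3. The part of these cell types in the genotype differences was not tested.

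The Pam3 response itself differed between genotypes for 2 of the 54, beside 0.173% of all genes with a larger value in KO and 0.589% with a smaller one. The log2 response of Irf1 was 2.90 in KO and 3.43 in WT, a difference of -0.53 (SE 0.0894, adjusted p = 0.00904). The log2 response of Il1a was 9.70 in KO and 8.97 in WT, a difference of 0.73 (SE 0.177, adjusted p = 0.0471), which passed in 9 of 32 settings. Il1a was low in media, at 0.813 CPM in KO and 1.21 CPM in WT, and was not called between genotypes after Pam3. Gsdmd, whose response was 1.83 in KO and 2.05 in WT, did not pass. Without WT_Pam3 replicate 5, 1 of the 54 was larger and 7 were smaller in KO, where 102 of all 14566 genes then tested were larger and 442 smaller.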

How the data were processed

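PolyA RNA of 24 libraries (4 groups of 6) was sequenced as single-end 50-base reads without strand, per the labels' protocols. The submitters' processing notes name GSNAP and GRCm38, without versions. Per the file headers, the deposited count column holds uniquely aligned reads per gene model, not normalized. Per the file headers, the authors' RPKM column is length-scaled and adjusted by a size factor. GENCODE release M21 gave symbols for 52403 of 52636 gene models, and the other 233 held 0.0196% of reads. No 2 files were identical.

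Counts were fitted in R 4.3.3 with edgeR 4.0.16 (filterByExpr, TMM, quasi-likelihood F-test, 1 mean per group, all 24 libraries in 1 fit). The filter left 14435 genes, and the biological coefficient of variation was 8.21%. Adjusted p-values are Benjamini-Hochberg over all genes tested, with a threshold of 0.05. Standard errors are the fold change over the root of its F. RPKM entered level ratios, with two-sided exact permutation tests adjusted over 8. Alternatives used DESeq2 1.42.0, limma 3.58.1 on log2(RPKM + 0.1) and log2(RPKM + 1), other scalings and filters, and each library left out in turn. The edgeR fit was tested on simulated data for KO_media against WT_media only, and the DESeq2 and limma fits were not tested in this way. Replicate numbers follow the order of deposition.

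The members and gene lists were chosen with earlier results of these data known. The 4 members are always named, and each pathway list adds up to 4 genes per comparison with the smallest adjusted p. Other list genes (Irf2, Hmgb1), Elane in KO and the markers Lyz2, Kdr, Camp and S100a8 were named after their values were seen. Some list genes are not reported here.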

Additional observations from a re-analysis of the deposited data

Results flagged for a closer look

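Among 20 groups of 6 libraries checked, 4 had a library apart from the rest by Dixon's test at the 95% level. Chance flags about 1 in 20 groups. WT_Pam3 replicate 5 had 1145 CPM of Ninj1, where the other 5 libraries had 646 to 810. The same library had 383 CPM of Gsdmd, where the others had 261 to 293. KO_Pam3 replicate 6 had 479 CPM of Ninj1, where the others had 409 to 433. KO_media replicate 2 had a Gsdme to Gsdmd RPKM ratio of 0.0239, where the others had 0.0191 to 0.0208.

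The Pam3 response differed between genotypes for 2 pathway genes by the interaction test in edgeR. The response of Irf1 in KO minus that in WT was -0.53 on the log2 scale (SE 0.0894, adjusted p = 0.00904). That of Il1a was 0.73 (SE 0.177, adjusted p = 0.0471), and it passed in 9 of 32 settings. Il1a averaged only 0.813 CPM in KO_media and 1.21 CPM in WT_media, and it was not called in KO_Pam3 against WT_Pam3 (log2 fold change 0.15).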

How the results depend on the processing

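No paired analysis was possible because the labels give no replicate numbers, and the numbers used here follow the order of deposition. The calls of Ninj1 between genotypes, and of Ninj1, Gsdmd and Gsdme with Pam3, kept their direction and side of the threshold under each scaling, filter, tool and left-out library that was run. For the difference of responses, which passed for no member, Ninj1 changed sign, at 0.0033 with library sizes alone, 0.0060 without KO_media replicate 3 and 0.0891 without WT_Pam3 replicate 5, and Gsdme at 0.0280 with limma on log2(RPKM + 1). The cause was not tested. Between genotypes in media, Gsdme passed with the groups compared alone (-0.2113), in DESeq2 (-0.2172) and without WT_Pam3 replicate 5 (-0.2134), with -0.25 to -0.19 over libraries left out. There Gsdmd ran from 0.09 to 0.14 and passed at 0.1238 without WT_Pam3 replicate 5. That library is in neither media group and enters these values only through the fit shared by all groups. After Pam3, Gsdme ran from -0.39 to -0.25 and passed at -0.3868 without KO_Pam3 replicate 5. Ninj1 differences of responses ran from -0.0928 (without WT_Pam3 replicate 6) to 0.0891.

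The counts of all genes called depend on the settings. KO_media against WT_media gave 438, and 1112 with the groups compared alone, 693 in DESeq2, and 238 (without WT_media replicate 3) to 1274 (without WT_Pam3 replicate 5). KO_Pam3 against WT_Pam3 gave 586, and 366 with no filter, 177 with the groups compared alone, 882 in DESeq2, and 383 (without KO_Pam3 replicate 3) to 1178 (without WT_Pam3 replicate 5). The difference of responses gave 110, and 63 with no filter, 393 in DESeq2, and 28 (without WT_media replicate 3 or 5) to 544 (without WT_Pam3 replicate 5). The higher and lower calls were 412 and 220 with library sizes alone in KO_Pam3 against WT_Pam3, where TMM gave 189 and 397. With Pam3 they were 3685 and 8935 in KO, where TMM gave 5803 and 6470, and 3584 and 9055 in WT, where TMM gave 5859 and 6376. DESeq2 gave no adjusted p for the Gsdme difference of responses. The ratio tests kept their side of the threshold under each alternative run. Depth limits Ninj2, with 9 counts in all, and Gsdme after Pam3, with 53 to 83 counts per library.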
